A study of Homo sapiens with 2 samples.

Results

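The Kruppel-like factor (KLF) genes described here are 10 members of the family, KLF2, KLF3, KLF4, KLF5, KLF6, KLF7, KLF9, KLF10, KLF11 and KLF13, of 19316 genes listed in either of 2 RNA-seq libraries. They were taken as a named list and selected on measured values, since KLF6 was among the genes with the highest ratio of FPKM in these same 2 libraries, so the values below describe the libraries and no difference was tested. The cells were SNU449, labelled as liver cancer cells, and RNA was taken 7 days after they received lentivirus expressing a short hairpin RNA (shRNA) against FZD2, a frizzled receptor for Wnt ligands, or a control shRNA. Both groups carried a lentiviral shRNA, each group held 1 library, and the sources used here name neither the hairpin sequence nor a second hairpin. The FZD2 shRNA library held 8234592 expected counts (estimated reads per gene) and the control library 8436870. The targeted transcript was at 15.76 against 59.45 FPKM (reads scaled to gene length and library size), a log2 ratio of -1.85 with a pseudocount of 1 FPKM, from expected counts of 503.28 and 1949.91 that were fractional.

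KLF proteins are transcription factors that end in a block of zinc fingers and bind GC-rich sequence, the GC box and the CACCC box, sites which they share with the related SP factors. Their amino-terminal parts differ and set the family's groups. KLF2, KLF4, KLF5, KLF6 and KLF7 belong to a group known mainly for activating transcription, KLF3 recruits the corepressor CtBP, and KLF9, KLF10, KLF11 and KLF13 bind the corepressor SIN3A. Several are early response genes, and in liver KLF6 is known both from wound responses of stellate cells and as a gene altered in hepatocellular carcinoma.

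Because KLF proteins bind GC boxes, also in promoters of their own family, the 250 bases before the transcription start are shown for the member that was higher and for the lower members (count interval below 1) that have a single start in the table, KLF4, KLF9 and KLF13. The sequences are from RefSeq (GRCh38.p14, another build than the hg19 of the submitters' processing notes), matched by symbol, and are printed 5′ to 3′ on the strand of the gene. Capitals mark the GC box GGGCGG and the CACCC box CACCC, each on both strands. KLF6 lies at chr10:3785210-3785459 (minus strand), KLF4 at chr9:107489770-107490019 (minus strand), KLF9 at chr9:70414658-70414907 (minus strand) and KLF13 at chr15:31326585-31326834 (plus strand).
KLF6: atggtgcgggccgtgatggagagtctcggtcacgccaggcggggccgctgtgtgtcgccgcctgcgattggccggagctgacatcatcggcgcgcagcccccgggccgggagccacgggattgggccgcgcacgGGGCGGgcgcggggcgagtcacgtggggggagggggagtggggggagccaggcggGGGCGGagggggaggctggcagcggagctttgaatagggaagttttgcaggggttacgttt
KLF4: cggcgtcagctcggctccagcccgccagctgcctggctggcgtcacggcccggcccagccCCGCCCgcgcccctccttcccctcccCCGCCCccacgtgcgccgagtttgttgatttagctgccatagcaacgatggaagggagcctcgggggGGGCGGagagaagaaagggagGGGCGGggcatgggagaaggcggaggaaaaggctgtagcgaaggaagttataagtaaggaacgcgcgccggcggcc
KLF9: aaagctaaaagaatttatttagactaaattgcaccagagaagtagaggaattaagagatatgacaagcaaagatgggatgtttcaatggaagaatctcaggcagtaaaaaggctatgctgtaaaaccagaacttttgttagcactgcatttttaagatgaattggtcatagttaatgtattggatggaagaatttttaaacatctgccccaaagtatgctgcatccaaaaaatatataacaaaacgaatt
KLF13: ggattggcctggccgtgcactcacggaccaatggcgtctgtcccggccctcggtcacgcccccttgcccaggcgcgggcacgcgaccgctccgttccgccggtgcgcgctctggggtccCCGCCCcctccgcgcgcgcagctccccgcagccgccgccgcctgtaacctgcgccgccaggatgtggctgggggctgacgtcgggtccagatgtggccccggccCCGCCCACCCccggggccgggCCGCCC
The KLF6 window held 2 GC boxes and 0 CACCC boxes, the KLF4 window 4 and 0, and the KLF13 window 3 and 1, with 1 base shared between a GC box and the CACCC box. The KLF9 window held 0 of either, so the lower members were not alike in this. Across 35116 promoter windows of the same length, 42.6% held a GC box and 54.7% a CACCC box. At least 2 GC boxes, the number in KLF6, were in 24.3% of all windows, at least 3 in 13.9% and at least 4 in 7.63%. The KLF6 and KLF4 windows each held 1 E-box CACGTG, present in 6.34% of all windows. No serum response element was found in the 4 printed windows, and 1.16% of all windows held one. GC content was 72.4% for KLF6, 69.2% for KLF4, 32.4% for KLF9 and 78.8% for KLF13, against a median of 58% over all windows. In all, 8 of the 10 members had 13 windows in the table, of which 8 held a GC box and 6 a CACCC box. These are matches of letters in a window, and binding was not measured.

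KLF6 was the most abundant member in both libraries, at 102.04 FPKM with the FZD2 shRNA and 28.49 FPKM with the control. Its expected counts were 3971 and 1139. On the log2(FPKM + 1) scale, with a pseudocount of 1, the ratio of FZD2 shRNA over control was 1.80, or 3.49-fold higher. The count ratio, scaled to the library totals, was 1.84 on the log2 scale, with a 95% counting interval of 1.74 to 1.93. That interval, like all those below, is an exact conditional binomial interval that covers counting error between these 2 libraries only and holds no variation between cultures. KLF6 stood at place 2496 by FPKM among all genes in the control library and at place 698 in the FZD2 shRNA library. By the ratio on FPKM + 1 it was at place 587 among the 14377 genes that reached 1 FPKM in either library. Among the 8154 of these with whole expected counts in both libraries, KLF6 was at place 42.

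The other members summed to less with the FZD2 shRNA, so the makeup of the named list differed between the libraries. Without KLF6, the 9 other members summed to 27.46 FPKM with the FZD2 shRNA and 40.03 FPKM with the control. With KLF6, the sums were 129.5 and 68.52 FPKM. KLF6 made up 78.8% of the summed FPKM with the FZD2 shRNA and 41.6% with the control. It exceeded the next member 12.7-fold in the FZD2 shRNA library, where that was KLF7, and 2.47-fold in the control library, where it was KLF10. KLF16, a family gene outside the named list, was at 10.62 FPKM with the FZD2 shRNA and 11.91 FPKM with the control. That was above the next member in each library, so these shares and gaps hold for the named list and not for the whole family.

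**Figure D1:**
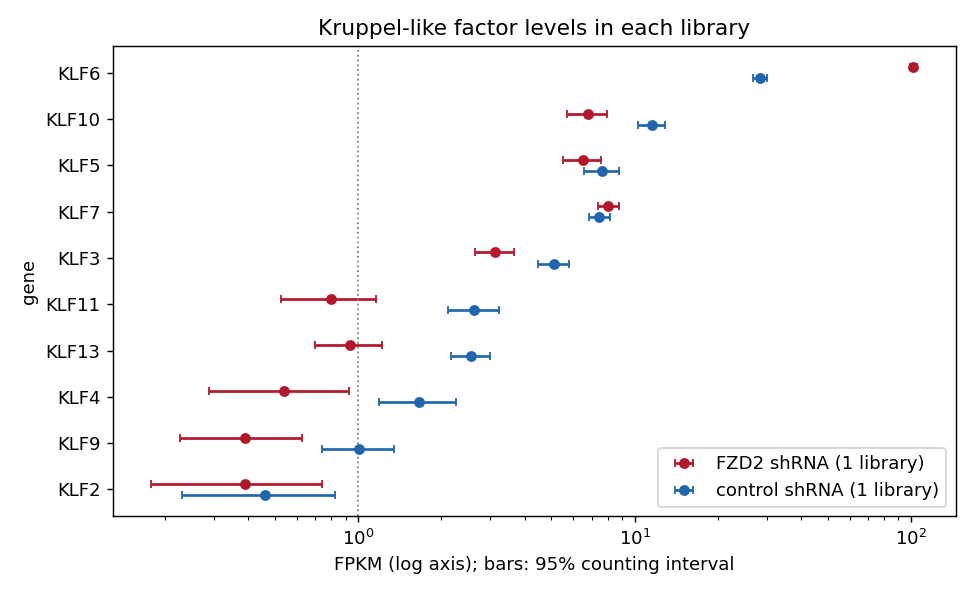
FPKM of the 10 KLF genes (log axis) in the FZD2 shRNA library (red) and the control shRNA library (blue), 1 library each, with bars for the 95% counting interval and a dotted line at 1 FPKM. KLF6 sits at 102.04 against 28.49 FPKM, while KLF4, KLF9, KLF11 and KLF13 lie below 1 FPKM in the FZD2 shRNA library and above it in the control.

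Genes that reached 1 FPKM in either library were called measured. By that filter 9 of the 10 members were measured, all but KLF2, and KLF4, KLF9, KLF11 and KLF13 passed it through the control library alone. All 10 had whole expected counts in both libraries, so none showed the fractional counts that arise where reads are shared between genes. Among the 9 measured members, 1 was at least 2-fold higher on the FPKM + 1 scale and 1 at least 2-fold lower, with 7 between and a median log2 ratio of -0.56. Over all 14377 measured genes, 15.2% were at least 2-fold higher and 7.41% at least 2-fold lower, with a median of -0.0042. Among the 8154 measured genes without shared reads, the group to which the members belong, the median was -0.25, with 4.19% higher and 10.2% lower. The 6223 measured genes with shared reads (fractional counts) had a median of 0.48, so as a set they ran upward. As these ratios chose the list, the counts are a description.

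The number of lower members differed between scales, as did the share of all genes. By CPM (counts scaled to the library total) with a pseudocount of 1, there were 5 members at least 2-fold lower (KLF4, KLF9, KLF10, KLF11 and KLF13), against 10.1% of all measured genes and 13.9% of those without shared reads. With a pseudocount of 0.1 FPKM, 4 members (these without KLF10) were lower, against 12.2% and 16.8% of the same sets of genes. With a pseudocount of 5 FPKM, 0 members were lower, against 2.09% and 2.76%. With a trend of the ratios with GC content taken out, 0 were lower, against 2.53% and 3.38% of the genes of known GC content. The counting interval lay below 1 for 6 members (KLF3, KLF4, KLF9, KLF10, KLF11 and KLF13), above 1 for KLF6, and included 1 for KLF2, KLF5 and KLF7. Over all measured genes, 36.8% had an interval below 1 and 35.5% an interval above 1. Among measured genes without shared reads, 48.1% had an interval below 1 and 19.4% an interval above 1.

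**Figure D2:**
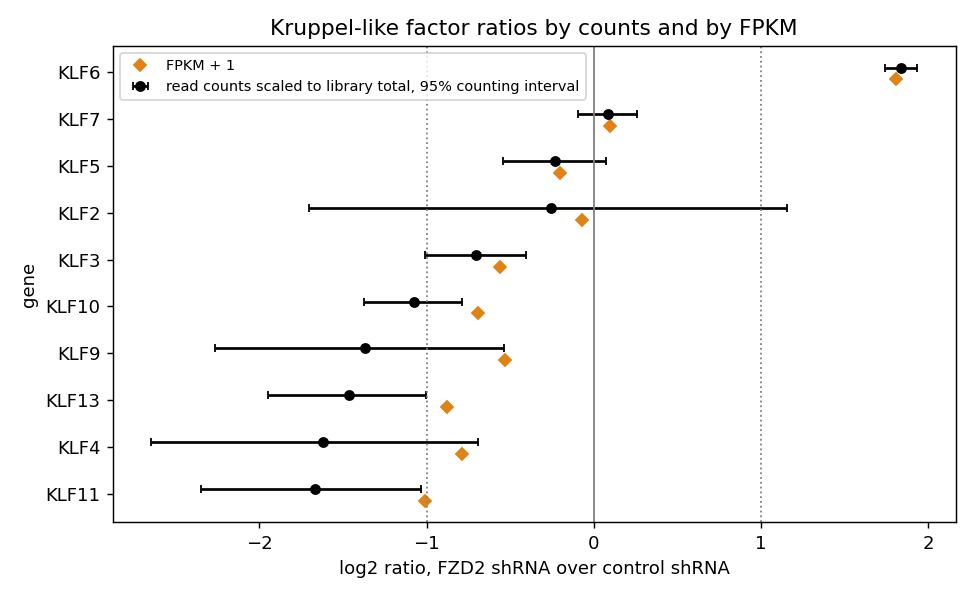
Log2 ratio of FZD2 shRNA over control for each KLF gene, from read counts with the 95% counting interval (black) and from FPKM + 1 (orange diamonds), with dotted lines at 2-fold. KLF6 alone lies to the right of 2-fold, and for KLF4, KLF9, KLF11 and KLF13 the FPKM + 1 value sits nearer to 0 than the count value.

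Within the activator group, KLF6 differed from its relatives. KLF7, the closest relative of KLF6 in sequence and known from neurons and fat cells, was at 8.04 FPKM with the FZD2 shRNA and 7.46 FPKM with the control. Its counting interval included 1, with a count log2 ratio of 0.08 (-0.10 to 0.26). Its FPKM + 1 ratio went from 0.10 to 0.57 with the GC trend taken out. KLF5, which promotes proliferation of epithelial cells, was at 6.49 against 7.62 FPKM, with a count log2 ratio of -0.23 (-0.54 to 0.07), and its FPKM + 1 ratio went from -0.20 to 0.31 with the GC trend taken out. For KLF5 and KLF7, a difference beyond counting error was thus not detectable in the counts as they stand, while the GC trend moved both ratios by more than that error.

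KLF4 and KLF2, known as flow-induced factors of endothelial cells and, for KLF4, of stem-cell reprogramming and epithelial differentiation, were near the floor of the data. KLF4 was at 0.54 FPKM with the FZD2 shRNA and 1.66 FPKM with the control, from 13 and 41 reads. Its count log2 ratio was -1.62 (-2.65 to -0.69), against -0.79 on the FPKM + 1 scale. KLF2 was at 0.39 against 0.46 FPKM, from 9 and 11 reads, and its interval of -1.70 to 1.15 spans more than 2-fold in both directions. A difference in KLF2 was not detectable at this depth. Without KLF6, the activator group summed to 15.46 against 17.2 FPKM.

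KLF3, the CtBP-binding member and a repressor known from red blood cells and fat, was at 3.12 FPKM with the FZD2 shRNA and 5.09 FPKM with the control. It had 147 reads with the FZD2 shRNA and 246 with the control, which gave -0.71 (-1.01 to -0.41) for the log2 ratio of counts. On the FPKM + 1 scale the value was -0.56, which fell short of 2-fold, and it was -0.05 with the GC trend taken out. KLF3-AS1, a noncoding RNA gene that neighbours and overlaps KLF3 in the RefSeq table, was at 3.07 against 0.55 FPKM, from expected counts of 60.16 and 11. Its log2 ratio was 1.39, opposite in sign to KLF3. No source used here says whether counting used strand, so reads of the pair may not be fully separated. The KLF3-AS1 count was not whole with the FZD2 shRNA, while KLF3 had whole counts in both libraries. The fraction thus does not show reads shared with KLF3.

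The SIN3A-binding members of the named list were all lower with the FZD2 shRNA, and their FPKM summed to 8.88 against 17.74. Each had a counting interval below 1, as did 48.1% of measured genes without shared reads. KLF9, KLF11 and KLF13 were measured through the control library alone. The sum leaves out KLF16, a SIN3A-binding factor outside the named list, at 10.62 against 11.91 FPKM. With the GC trend taken out, the log2 ratio on FPKM + 1 went from -0.53 to -0.06 for KLF9. For KLF10 it went from -0.69 to -0.22. KLF11 (TIEG2), an early gene of the transforming growth factor beta (TGF-beta) response and a regulator in pancreatic beta cells, was at 0.8 FPKM with the FZD2 shRNA and 2.63 FPKM with the control. That was 27 against 88 reads, with a log2 ratio of -1.01 on FPKM + 1 and a count log2 ratio of -1.67 (-2.35 to -1.03). It was the single member past 2-fold lower on the main scale, and only just, at 2.02-fold. With the GC trend taken out KLF11 was at -0.54.

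KLF13, known as an activator of the chemokine gene CCL5 in T cells and a cardiac factor, was at 0.93 FPKM with the FZD2 shRNA and 2.55 FPKM with the control, from 53 and 150 reads. The FPKM + 1 ratio was -0.88, just short of 2-fold, and the count log2 ratio was -1.47 (-1.95 to -1.01). KLF9, which is induced by glucocorticoid and thyroid hormone, was at 0.39 against 1.01 FPKM, from 17 and 45 reads. Its count log2 ratio was -1.37 (-2.27 to -0.54), against -0.53 on FPKM + 1. Both genes were low, so the pseudocount takes up much of the difference in their FPKM.

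KLF10 (TIEG1), the other early gene of the TGF-beta response, was the second most abundant member in the control library at 11.55 FPKM and was at 6.76 FPKM with the FZD2 shRNA. It had 142 reads against 307, a count log2 ratio of -1.08 (-1.37 to -0.79). The log2 ratio of its FPKM without a pseudocount was smaller, -0.77. The difference between them lies in the listed gene length, which was 2536.02 bases with the FZD2 shRNA and 3115 bases with the control.

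The listed length enters each FPKM value as a divisor, so it is not independent of the ratios that chose the list. It was the same in both libraries for all 7764 genes with 1 transcript listed in both, and for 1925 of 9559 genes with several transcripts, so it moves with the mix of transcripts assigned to a gene. KLF10, with 4 transcripts, was 18.6% shorter with the FZD2 shRNA, a log2 ratio of lengths of -0.30. Of 3977 measured genes with several transcripts, at least 50 reads in each library and no shared reads, 1.73% differed in length at least as much. KLF11 was 3.71% longer and KLF7 1.47% shorter, while KLF6, also with 4 transcripts, was at 4664.55 against 4664.8 bases. The files give no counts per transcript and no error for a length, so which KLF10 transcripts differed was not analysed here.

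**Figure D3:**
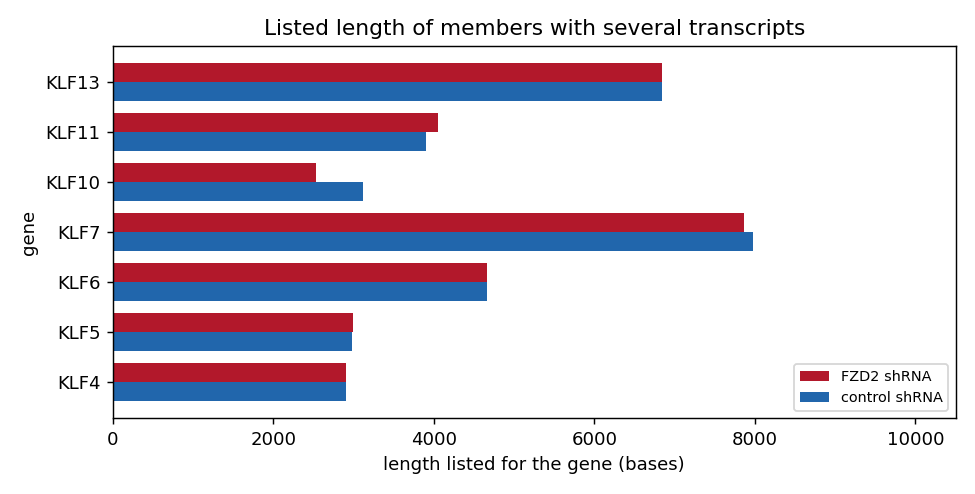
Length in bases listed for the 7 KLF genes with several transcripts, in the FZD2 shRNA library (red) and the control shRNA library (blue), 1 library each. The KLF10 bars differ most, at 2536.02 against 3115 bases, and the KLF6 bars are alike at 4664.55 against 4664.8 bases.

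The order of the levels was largely shared between the libraries. In the control, KLF6, KLF10, KLF5, KLF7, KLF3, KLF11, KLF13, KLF4, KLF9 and KLF2 followed from highest to lowest. The counting intervals overlapped between KLF5 and KLF7 and between each pair of neighbours from KLF11 down. With the FZD2 shRNA, KLF7 came after KLF6 and KLF10 after KLF7, and the intervals of KLF7, KLF10 and KLF5 overlapped between neighbours, as did those of every pair of neighbours from KLF13 down. KLF6 was set apart from the member below it, and KLF3 from the members above and below it, in each library.

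Transcript GC content differed among the members, and ratios moved with GC content across genes. KLF3 had the lowest, 41.5%, followed by KLF5 at 43.0%, while KLF6, KLF7, KLF9, KLF10 and KLF11 lay between 45.9% and 46.5%. KLF4 was at 55.0%, KLF13 at 57.6% and KLF2 at 65.2%. At the GC content of KLF6, the trend over genes without shared reads was -0.48, and with it taken out KLF6 was at 2.28. KLF13 moved least, from -0.88 to -0.81. With the trend taken out, the median of the 9 measured members was -0.06, while the median of all measured genes moved by 0.23 to 0.23. These 2 medians are not alike in reference. The trend was fitted on genes without shared reads, to which the members belong, while all measured genes include those with shared reads. In TPM, in which every library has the same sum, the median of all measured genes moved by 0.14, and the members' median was -0.57.

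**Figure D4:**
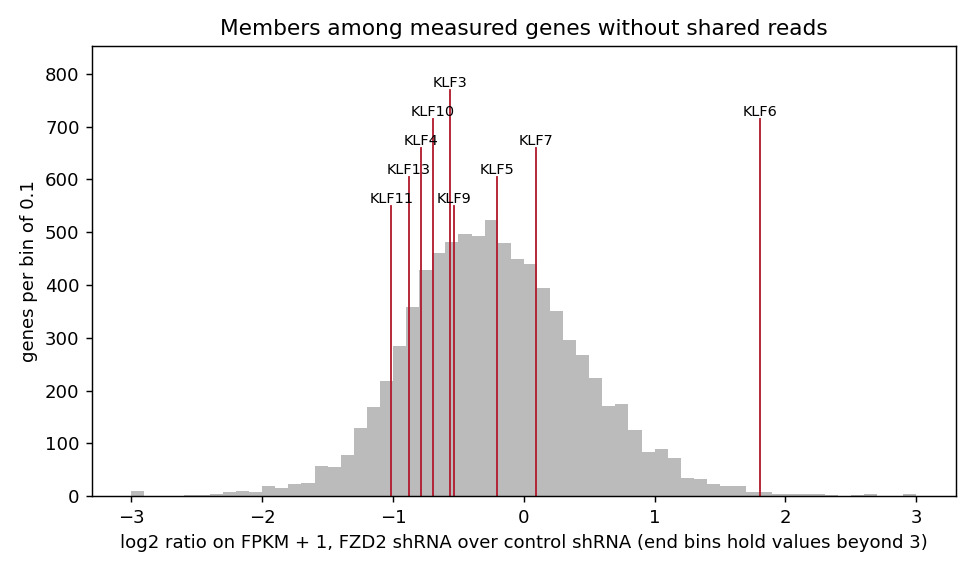
Distribution of log2 ratios (FPKM + 1, FZD2 shRNA over control) over the 8154 measured genes without shared reads, in bins of 0.1, with a red line for each of the 9 measured KLF genes. KLF6 lies in the upper tail at 1.80, and the 8 others lie between -1.01 and 0.10.

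Genes with values most like those of KLF6 were found by the distance of log2(FPKM + 1) over the 2 libraries, among genes without shared reads. The nearest was LAMTOR4, a subunit of the lysosomal Ragulator, at 103.39 against 28.77 FPKM (distance 0.023). SOX4, a transcription factor gene, followed at 105.25 against 31.2 FPKM (distance 0.13). Then came IFI27L2 (96.51 against 34 FPKM), the translation initiation factor gene EIF5 (92.88 against 34.58 FPKM) and TGFB1I1, which encodes the adhesion adaptor Hic-5 (80.74 against 27.81 FPKM). With 2 libraries, such likeness says only that the levels lie close together.

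The rest of the family was mostly below 1 FPKM. Of 8 other KLF genes, 2 were measured. Over this and the 8 lists that follow, 54 different genes were measured, of which 3 (5.56%) were at least 2-fold higher and 6 (11.1%) at least 2-fold lower. Those shares stand beside 15.2% and 7.41% of all measured genes, and 4.19% and 10.2% of those without shared reads, so the counts in single lists are given as description. KLF16, a SIN3A-binding factor, was at 10.62 against 11.91 FPKM, with a count log2 ratio of -0.17 (-0.42 to 0.08), so the lower values of KLF9, KLF10, KLF11 and KLF13 did not extend to it beyond counting error. KLF8, a CtBP-binding relative of KLF3 known as a gene that KLF3 represses, was at 2.31 against 0.63 FPKM, a log2 ratio of 1.02. Its expected counts of 197.64 and 65.52 were not whole, so its value is uncertain, and with a pseudocount of 5 FPKM it did not reach 2-fold. Measured genes with such counts had a median log2 ratio of 0.48. KLF17 was at 0.78 against 0.19 FPKM, from expected counts of 20.33 and 5.18, and KLF12 at 0.12 against 0.22 FPKM, from 11 and 21 reads. KLF1, KLF14 and KLF15 were at most 0.24 FPKM. KLF18 was unlisted in both libraries. KLF11-DT, a noncoding gene beside KLF11, had 1 read in each library.

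SP factors, which bind the same boxes, included a further lower gene. Of 9, 4 were measured, of which 1 was at least 2-fold lower and 0 higher, with a median of -0.26. Lower genes were 7.41% of all measured genes and 10.2% of those without shared reads. SP3, which can activate or repress, was at 3.37 FPKM with the FZD2 shRNA and 9.68 FPKM with the control, from 170 and 502 reads, a log2 ratio of -1.29. SP1, the widely expressed activator, was at 4.81 against 8.37 FPKM (-0.69). SP2 was at 4.8 against 4.15 FPKM (0.17). SP4 was at 3.27 against 1.57 FPKM (0.73), with fractional counts.

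Corepressors and coactivators that KLF proteins recruit were given by fixed lists. All 8 corepressor genes were measured. Their median was -0.47, and 2 were at least 2-fold lower against 0 higher. Over all measured genes the lower share was 7.41% and the median -0.0042. Over those without shared reads they were 10.2% and -0.25. HDAC1, a histone deacetylase of the SIN3 complex, was at 21.76 against 64.92 FPKM, or 376 against 1152 reads, a log2 ratio of -1.53. SAP30, another SIN3 complex subunit, was at 4.69 against 10.41 FPKM, 2.01-fold lower on FPKM + 1, a value that lies at the limit and fell inside it when the median ratio of all genes was set to 0. CTBP2 was at 21.51 against 34.51 FPKM (-0.66, fractional counts). HDAC2 was at 31.59 against 26.69 FPKM (0.24, fractional counts), and CTBP1 at 38.77 against 36.72 FPKM (0.08). SIN3A was at 5.38 against 7.97 FPKM (-0.49, fractional counts). Of 4 acetyltransferase genes, KAT2B was lower, at 2.09 against 5.37 FPKM (-1.04), and 0 were higher. KAT2A was at 9.16 against 17.5 FPKM (-0.86), CREBBP at 3.86 against 4.32 FPKM and EP300 at 5.83 against 5.93 FPKM (fractional counts).

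Among 5 ubiquitin ligase genes that act on KLF proteins, the median was -0.52, with 1 gene at least 2-fold higher and 0 lower. Higher genes were 15.2% of all measured genes and 4.19% of those without shared reads. FBXW7, which marks KLF5 and KLF2 for degradation, was at 8.85 FPKM with the FZD2 shRNA and 3.54 FPKM with the control, from 256 and 117 reads, a log2 ratio of 1.12. WWP1, also a ligase for KLF2 and KLF5, was at 3.7 against 8.02 FPKM (-0.94). BTRC was at 2.62 against 4.87 FPKM (-0.70) and SIAH1, a ligase for KLF10, at 5.02 against 7.66 FPKM (-0.52).

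Upstream routes held no gene past 2-fold on the FPKM + 1 scale. By counts SGK1 was past it, at a log2 ratio of -1.04 (-1.34 to -0.75). Of 6 measured genes of the MEK5-ERK5-MEF2 route, which induces KLF2 and KLF4, the median was -0.19. MAP2K5, which encodes MEK5, was at 5.06 against 2.82 FPKM (0.67), and MAPK7, which encodes ERK5, at 41.58 against 64.28 FPKM (-0.62). MEF2D was at 3.87 against 5.89 FPKM (-0.50) and MEF2A at 2.64 against 3.2 FPKM (-0.21, fractional counts). Of 6 measured genes of the glucocorticoid route, which induces KLF9, the median was -0.34. The receptor gene NR3C1 was at 9.75 against 9.53 FPKM (0.03). Among its induced genes, SGK1 was at 7.68 against 14.93 FPKM (-0.88), DUSP1 at 11.57 against 19.36 FPKM (-0.70) and TSC22D3 at 2.34 against 3.91 FPKM (-0.56). FKBP5 was at 10.18 against 10.28 FPKM (fractional counts), but its count log2 ratio was 0.35 (0.15 to 0.54). Its listed length was 5530.06 bases with the FZD2 shRNA and 4308.29 with the control.

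Reported targets of the activator group lay near the centre of all genes. Of 18, 13 were measured. Their median was 0.02, or -0.16 over the 9 without shared reads, and 1 gene was lower and 0 higher. Lower genes were 7.41% of all measured genes and 10.2% of those without shared reads. CDKN1A, the cell-cycle inhibitor p21 that KLF6 and KLF4 are known to induce, was at 6.28 FPKM with the FZD2 shRNA and 11.73 FPKM with the control, a log2 ratio of -0.81. CDKN1B, which encodes the inhibitor p27, was at 4 against 13.58 FPKM (-1.54). The stress factor gene ATF3 was at 2.25 against 4.09 FPKM (-0.65) and BIRC5, which encodes survivin, at 71.09 against 38.76 FPKM (0.86, fractional counts).

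Reported targets of the repressor groups held 7 measured genes of 8. The median was -0.12, and 2 genes were higher and 1 lower, beside 15.2% higher and 7.41% lower over all measured genes. Without shared reads those shares were 4.19% and 10.2%. SMAD7, the inhibitory SMAD that KLF10 and KLF11 are known to repress, was at 1.58 against 6.67 FPKM, from 34 and 140 reads, a log2 ratio of -1.57. SMAD7, KLF10 and KLF11 were all lower in the same library, and a relation between them was not tested. CCL5, a chemokine gene that KLF13 is known to activate and not to repress, was at 303.41 against 51.3 FPKM (2.54). KLF8 (above) was the other higher gene. Both had fractional counts, and the median of measured genes with such counts was 0.48. LGALS3, a galectin gene that KLF3 represses, was at 109.65 against 75.97 FPKM (0.52).

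**Figure D5:**
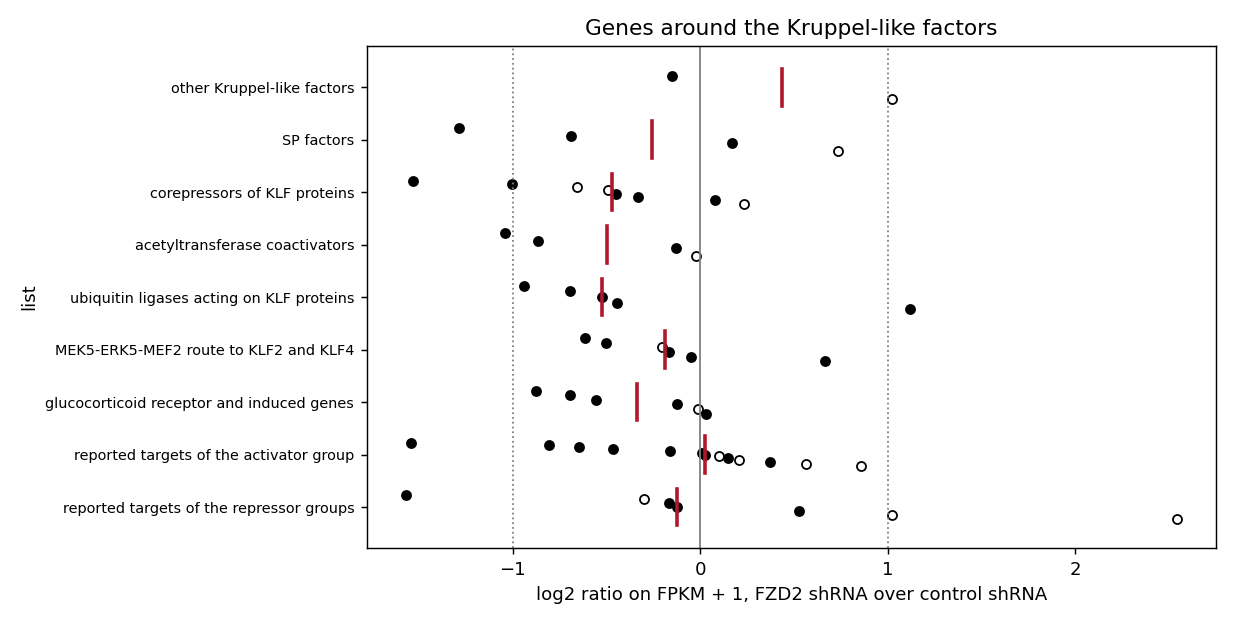
Log2 ratio (FPKM + 1, FZD2 shRNA over control) of each measured gene in the 9 lists around the KLF genes, with red bars for the list medians, dotted lines at 2-fold, filled points for genes with whole counts and open points for genes with fractional counts. CCL5 lies farthest right at 2.54, and SMAD7, CDKN1B and HDAC1 lie farthest left between -1.57 and -1.53.

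Markers set limits on the cells behind these values. The growth protocol calls SNU449 a prostate line while the cell type label gives liver. Of 9 hepatocyte markers 2 were measured, FGB (105.3 against 91.67 FPKM, fractional counts) and FGG (123.36 against 100.72 FPKM). ALB was at most 0.05 FPKM, and APOB and TTR were unlisted. Among prostate markers, HOXB13 was at 4.78 against 5.12 FPKM, and KLK2, KLK3, TMPRSS2 and FOLH1 were unlisted. Endothelial markers, relevant to KLF2 and KLF4, summed to 2.59 FPKM with the FZD2 shRNA and 0.61 FPKM with the control. The larger part in each library was PECAM1 (2.33 against 0.41 FPKM, fractional counts), with VWF unlisted and CDH5 at most 0.03 FPKM. Of 5 leukocyte markers, relevant to CCL5, 3 were measured, and their list summed to 75.21 against 15.59 FPKM. Most was LYZ (71.47 against 12.31 FPKM, fractional counts), with CD3E unlisted and PTPRC at 1.61 against 1.56 FPKM (fractional counts). The part of these transcripts in the CCL5 value was not tested. In a bulk library, a lower share of cells that express a gene and less RNA of it per cell cannot be told apart.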

How the data were processed

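Per the labels' protocols, poly(A) RNA of SNU449 cells was fragmented, reverse transcribed with random primers and sequenced as 1 library per group. Bowtie2, HISAT and hg19 are named in the submitters' processing notes. For the counting program, the annotation and the strand setting no source used here gives a name. Per the file headers, the authors' columns hold expected counts, FPKM and gene length. An expected count, as deposited, is an estimated number of reads that need not be whole. FPKM, per the file headers, relates reads to gene length and library size. Genes unlisted in a file were set to 0.

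Symbols were matched through the RefSeq gene table, and 53 measured genes had none. Ratios are log2 of FPKM + 1. With 1 library per group no test was possible. Intervals (95%) are exact conditional binomial on counts rounded to whole numbers. Each read is taken as independent, which copies made in amplification are not, so they cover counting error at most. In either library 3 counts, the limit that a count of 0 allows, are 3.64e-05% (FZD2 shRNA) and 3.56e-05% (control) of the total. Shared reads means an expected count that is not whole within 0.001. GC content came from GENCODE release 29 transcripts matched by accession (96.1% of measured genes). The trend was fitted by lowess (fraction 0.3) on measured genes without shared reads. TMM factors came from edgeR 4.0.16. Both the interval and the 2-fold rule were checked on simulated counts. Scripts ran in Python 3.11.15 with SciPy 1.17.1, statsmodels 0.14.6, pandas 2.3.3, NumPy 2.4.6 and matplotlib 3.10.9.

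The members and the 9 gene lists (74 entries) were chosen with earlier results of these data known. Named genes were the 10 members, FZD2, all measured other KLF and SP genes, each list's members past 2-fold or otherwise up to 4 with the largest ratio in size, KLF noncoding entries, and the 5 genes nearest to KLF6. Other genes named, among them unmeasured KLF genes and further list members, were chosen after their values were seen. One marker gene is not reported here.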

Additional observations from a re-analysis of the deposited data

How the results depend on the processing

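KLF6 stayed at least 2-fold higher under each alternative, with a log2 ratio of 1.68 at a pseudocount of 5 FPKM and 1.98 in TPM. It was at 2.28 with the GC trend taken out. On the main scale KLF6 did not reach the 4-fold limit. The members' median was -1.04 by CPM, -1.02 after TMM and -0.061 with the GC trend taken out. Lower members numbered 4 with a pseudocount of 0.1, 0 with a pseudocount of 5, 5 by CPM, 5 after TMM, 0 with the GC trend taken out, 0 with a filter of 5 FPKM, 4 at a 1.5-fold limit, 0 at a 4-fold limit and 6 by the counting interval, and at the 4-fold limit 0 were higher. Over the 9 lists, 3 genes were higher and 6 lower. Higher and lower genes were 5 and 7 with a pseudocount of 0.1, 1 and 2 with a pseudocount of 5, 6 and 3 with the GC trend taken out, 6 and 16 at a 1.5-fold limit, 1 and 0 at a 4-fold limit, 1 and 6 without shared reads, and 12 and 26 by the counting interval. By the counting interval, 35.5% of all measured genes were higher and 36.8% lower, and 19.4% and 48.1% of those without shared reads. For the 1.5-fold and 4-fold limits, TMM and the 5 FPKM filter, no share of all genes was computed. Nor was one for higher genes with the other pseudocounts or the GC trend taken out. Counts under those settings are a description. For the 9 other members, 55 of 63 alternative values moved by less than the counting error and 8 by more. Apart from settings that change the limit itself or the genes counted, the cause was not tested. No paired analysis was possible because each group held 1 library. For the same reason no library could be left out, and the low members KLF2, KLF4 and KLF9 rest on under 50 reads in each library.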
